A study of Mus musculus with 9 samples.

Results

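The proteasome is the protease complex that degrades ubiquitin-tagged proteins, and its genes were followed here in mouse lung. Probes were chosen by name: every probe whose platform gene symbol begins with Psma to Psmg and a number, which gave 40 of the 10012 probes of the table, or 40 of the 8841 genes that its probes name. Among them 2, Psmc3ip and Psme3ip1, are named only for a partner of a proteasome subunit and are not part of the complex, which left 38 genes with 1 probe each. These were 7 alpha and 6 constitutive beta subunits of the core, 3 immune subunits, 5 ATPases and 12 other genes of the cap, 3 activators and 2 assembly chaperones. The 12 are grouped by their Psmd names and include genes of assembly chaperones, such as Psmd9 and Psmd10. Of the 38, 37 were tested. The exception was the chaperone gene Psmg2. It lay above the floor set for the test on overventilation array 2 and LPS array 3 alone, where 3 arrays were needed. Psmg2 was at the floor of the measurement on overventilation arrays 1 and 3, as were Psmc3ip on 7 arrays and Psme3ip1 on all 9. Psma8, Psmb2, Psmb11, Psmc2, Psmd3, Psmd11, Psme4, Psmf1, Psmg3 and Psmg4 were not analysed here.

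The series concerns ventilator-induced lung injury, and RNA of mouse lung tissue was measured on 9 arrays, 3 to a group. The overventilation group was ventilated mechanically at a pressure of 25 cmH2O for 3 h. The LPS group was injected with 3 mg/kg of lipopolysaccharide, the endotoxin of E. coli (serotype O127:BO), and no time of harvest is stated for it. The control group is labelled only as control. The sources used here give neither strain, sex and age nor the handling of the controls. They do not say that each sample is a different animal, so a p-value here covers the spread among these arrays alone, which may be technical. Levels are log2 ratios of a probe to the mean of its 3 control arrays, so that the control mean is 0 for every probe, and they allow no comparison of 1 gene's abundance with another's.

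The core of the proteasome is a barrel of stacked rings, with alpha subunits on the outside and beta subunits, some of them catalytic, on the inside. A cap of ATPases and other subunits recognises ubiquitin chains, removes them and threads the substrate into the barrel, while the Psme proteins form other lids that open the barrel without ubiquitin. Interferon gamma induces Psmb8, Psmb9 and Psmb10, which take the places of the catalytic subunits Psmb5, Psmb6 and Psmb7 in newly built complexes, together with the activators Psme1 and Psme2. The resulting immunoproteasome is known for making peptides that MHC class I molecules present, and leukocytes express it without stimulation.

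The promoters of 4 genes of the interferon-inducible set are shown because Psmb8 and Psmb9 lay on opposite sides of control after overventilation, while Psmb8, Psme1 and Psme2 lay on the same side. Psmb9, the transporter gene Tap1, Psmb8 and Tap2 follow each other on chromosome 17, and Psme1 and Psme2 lie on chromosome 14 with Emc9 between them. The sequences are from RefSeq (GRCm38.p6), 250 bases before and 50 after a gene's start, 5′ to 3′ on the gene's strand. They are Psmb8 (chr17:34197945-34198244, plus strand), Psmb9 (chr17:34187281-34187580, minus strand), Psme1 (chr14:55578244-55578543, plus strand) and Psme2 (chr14:55591052-55591351, minus strand, the first of 2 in the table). Capitals mark matches on either strand to the core of the antioxidant response element (TGANNNNGC), the core of the interferon-stimulated response element (GAAA, any 2 bases, GAAA) or the gamma interferon activation site (TTCNNNGAA).
Psmb8: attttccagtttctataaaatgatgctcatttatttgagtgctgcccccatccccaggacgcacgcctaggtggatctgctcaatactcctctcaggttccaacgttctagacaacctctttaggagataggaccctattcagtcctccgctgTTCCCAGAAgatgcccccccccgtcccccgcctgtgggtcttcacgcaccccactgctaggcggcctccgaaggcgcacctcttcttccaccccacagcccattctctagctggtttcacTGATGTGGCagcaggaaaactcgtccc
Psmb9: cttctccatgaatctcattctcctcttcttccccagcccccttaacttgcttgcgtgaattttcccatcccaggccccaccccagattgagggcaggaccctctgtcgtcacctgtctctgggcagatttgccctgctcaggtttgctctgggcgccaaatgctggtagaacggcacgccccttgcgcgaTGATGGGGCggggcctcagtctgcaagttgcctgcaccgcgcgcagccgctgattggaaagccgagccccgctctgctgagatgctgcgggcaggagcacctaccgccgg
Psme1: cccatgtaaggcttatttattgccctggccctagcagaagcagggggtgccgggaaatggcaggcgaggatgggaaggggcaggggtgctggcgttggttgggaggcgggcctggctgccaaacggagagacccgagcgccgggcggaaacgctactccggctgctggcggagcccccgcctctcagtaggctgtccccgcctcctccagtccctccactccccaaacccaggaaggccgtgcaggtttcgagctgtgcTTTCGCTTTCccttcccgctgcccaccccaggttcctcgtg
Psme2: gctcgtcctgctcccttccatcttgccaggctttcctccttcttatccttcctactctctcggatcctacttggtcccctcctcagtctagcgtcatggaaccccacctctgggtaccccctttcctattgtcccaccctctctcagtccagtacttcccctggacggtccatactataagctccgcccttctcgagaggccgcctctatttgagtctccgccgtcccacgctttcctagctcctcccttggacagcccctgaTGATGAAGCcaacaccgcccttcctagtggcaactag

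In these windows Psmb8, Psmb9 and Psme2 each held 1 match to the antioxidant element, Psmb8 also 1 to the gamma interferon site and Psme1 1 to the interferon-stimulated element, whereas the Psmb10 window held none of the 3. Shares were taken over 27025 promoters, the first in the table for each gene. The antioxidant core stood in 19 of the 33 promoters found for the 37 tested genes (57.6%), against 41.4% of the 27025. The interferon-stimulated core stood in 4 of the 33 (12.1%, against 3.49%), those of Psmb3, Psmd4, Psmd9 and Psme1. The gamma interferon site stood in 3 (9.09%, against 8.47%), and the letters CCAAT, the core of the CCAAT box, in 12 (36.4%, against 37.9%). No 2 different capitalised motifs overlap in the 4 sequences shown, and a match of letters is a description of the window only.

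The first question was how proteasome transcripts stand after ventilation at high pressure, with control lungs for comparison. Most core and cap genes lay somewhat higher in overventilated lungs, with the cap deubiquitinase gene Psmd14 the highest, whereas the immune subunit genes Psmb9 and Psmb10 and a few core and cap genes lay lower. No gene of the 37 passed limma's test at an adjusted p under 0.05, where 0% of the 5710 tested probes did. At an unadjusted p under 0.05 there were 6 of the 37 (16.2%), a share near the 14.9% of all tested probes, with Psmd14 higher (6.2% of all) and Psma6, Psmb4, Psmb9, Psmb10 and Psmc6 lower (8.69% of all). The median log2 change of the 37 was 0.34, with 23 above 0 (49.4% of all tested probes) and 14 below, and that of all tested probes was -0.01. By array the median level of the 37 was -0.02, 0.47 and 0.40 after overventilation and -0.12, 0.29 and -0.27 in controls. These medians overlapped, with overventilation array 1 inside the range of the controls.

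**Figure D1:**
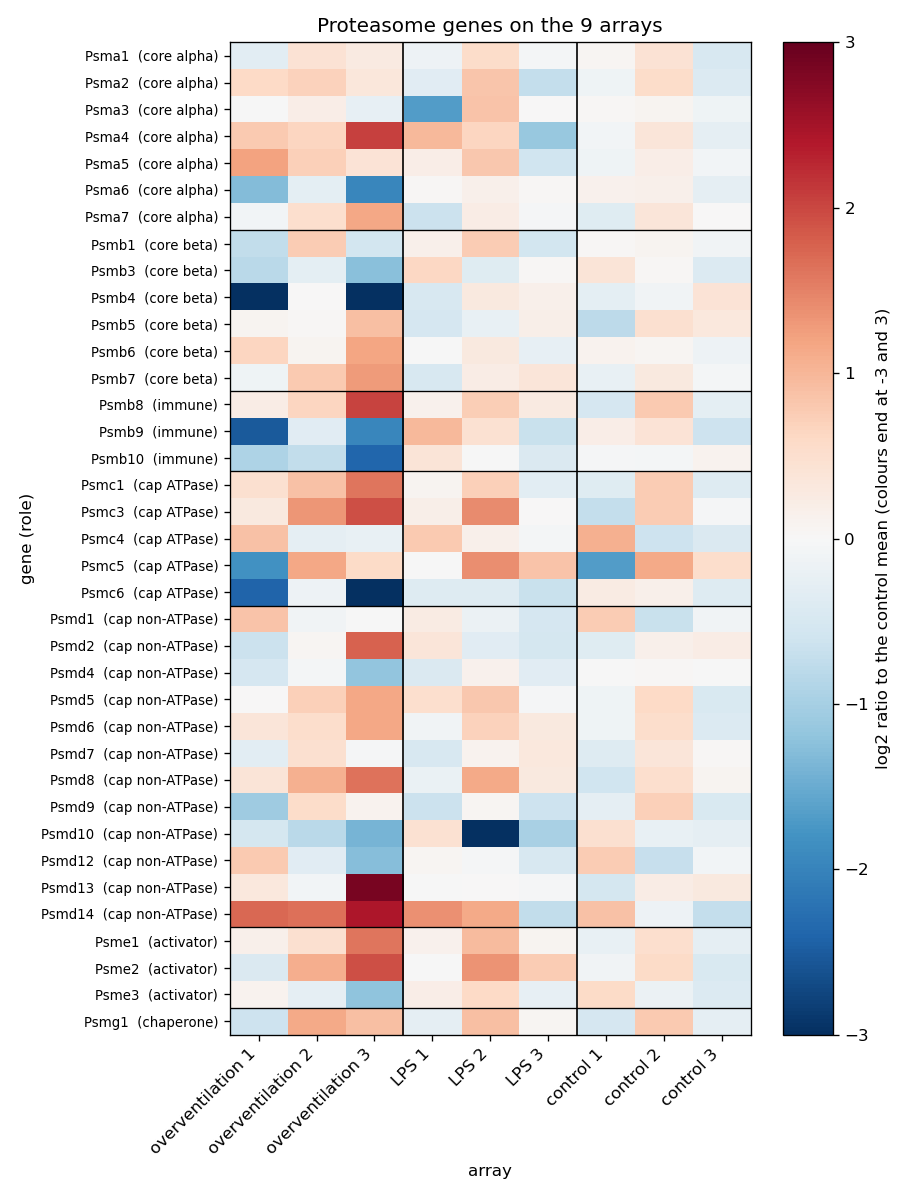
Log2 ratio to the control mean (colour) of the 37 tested proteasome genes (rows, grouped by role) on the 9 arrays (columns: overventilation, LPS, control). Psmd14 is high on all 3 overventilation arrays, and Psmb4 and Psmc6 are low on overventilation arrays 1 and 3, at -2.41 or lower.

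Of the 7 alpha subunit genes, which form the outer rings, 5 lay above 0 with a median log2 change of 0.53. Psma4 had levels of 0.78, 0.66 and 2.06 on overventilation arrays 1 to 3, of 0.98, 0.65 and -1.14 on the LPS arrays and of -0.09, 0.35 and -0.27 on the control arrays. All 3 overventilation arrays lay above all 3 controls, with a log2 change of 1.17 ± 0.58 SE (limma adjusted p = 0.395). Psma5 also had no overlap of both groups (log2 change 0.78, adjusted p = 0.409), as did Psma6 on the lower side. Psma6 lay at -1.30, -0.30 and -1.95 on the overventilation arrays, at 0.04, 0.14 and 0.04 on the LPS arrays and at 0.12, 0.15 and -0.28 on the control arrays. Its lowest levels were those of overventilation arrays 1 and 3 (log2 change -1.18 ± 0.41 SE, adjusted p = 0.231), and Psma1, Psma2, Psma3 and Psma7 had changes between -0.02 and 0.54.

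The 6 constitutive beta subunit genes parted evenly, 3 above and 3 below 0. The catalytic ones lay on the higher side, although the change of Psmb5 was -0.05 without control replicate 1. Psmb5 had levels of 0.09, 0.04 and 0.90 on the overventilation arrays, of -0.50, -0.23 and 0.17 on the LPS arrays and of -0.79, 0.47 and 0.32 on the control arrays, and the groups overlapped. Psmb6 had 0.64, 0.09 and 1.17 after overventilation, -0.01, 0.30 and -0.24 after LPS and 0.10, 0.07 and -0.16 in controls. Its lowest overventilation value lay inside the range of the controls. Psmb7 had -0.13, 0.79 and 1.28 after overventilation, -0.49, 0.22 and 0.37 after LPS and -0.23, 0.29 and -0.06 in controls. The log2 changes against control were 0.34 for Psmb5, 0.63 for Psmb6 and 0.65 for Psmb7 (limma adjusted p = 0.767, 0.432 and 0.511). The lower 3 were the structural subunit genes Psmb1 (-0.18), Psmb3 (-0.79) and Psmb4. Psmb4 lay at -3.34, 0.01 and -2.99 on the overventilation arrays, at -0.49, 0.30 and 0.14 on the LPS arrays and at -0.30, -0.10 and 0.40 on the control arrays. The low levels were those of arrays 1 and 3, and array 2 lay within the controls (log2 change -2.11 ± 0.76 SE, adjusted p = 0.239).

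Among the 5 cap ATPase genes, whose products unfold the substrate, Psmc3 was the highest and Psmc6 the lowest. Psmc3 had levels of 0.30, 1.32 and 1.94 on the overventilation arrays, of 0.18, 1.42 and 0.02 on the LPS arrays and of -0.72, 0.75 and -0.03 on the control arrays. The overventilation and control values overlapped (log2 change 1.19 ± 0.56 SE, limma adjusted p = 0.365). Psmc6 had -2.41, -0.16 and -4.29 after overventilation, -0.39, -0.38 and -0.68 after LPS and 0.25, 0.14 and -0.39 in controls. Again array 2 lay inside the range of the controls (log2 change -2.29 ± 0.82 SE, adjusted p = 0.239). Psmc1 had a log2 change of 0.98 and Psmc4 and Psmc5 ones of 0.13 and -0.02.

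Of the 12 other cap genes, 8 lay above 0. Psmd14, which encodes the metalloprotease that cuts ubiquitin chains off the substrate, had levels of 1.72, 1.66 and 2.42 on the overventilation arrays, of 1.38, 1.14 and -0.74 on the LPS arrays and of 0.88, -0.16 and -0.73 on the control arrays. All 3 overventilation values lay above all LPS and all control values. With 1.93 ± 0.42 (SD, n = 3) after overventilation and 0 ± 0.82 in controls the difference was 3.81-fold, with a limma unadjusted p of 0.00977 and an adjusted p of 0.214. Psmd13, a structural subunit of the lid, had levels of 0.33, -0.09 and 2.85 on the overventilation arrays, of -0.01, 0.02 and -0.04 on the LPS arrays and of -0.52, 0.22 and 0.30 on the control arrays, with array 3 alone high (log2 change 1.03). Without overlap on the lower side were the ubiquitin receptor gene Psmd4 (log2 change -0.58) and Psmd10 (-0.92), an assembly chaperone of the ATPase ring. Without overlap there were in all 3 of the 37 genes on the higher side, Psma4, Psma5 and Psmd14, against 9.12% of all tested probes, and 4 on the lower side, Psma6, Psmb10, Psmd4 and Psmd10, against 10.5%. The remaining 8 of these cap genes had changes between -0.27 (Psmd12) and 1.03 (Psmd8).

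**Figure D2:**
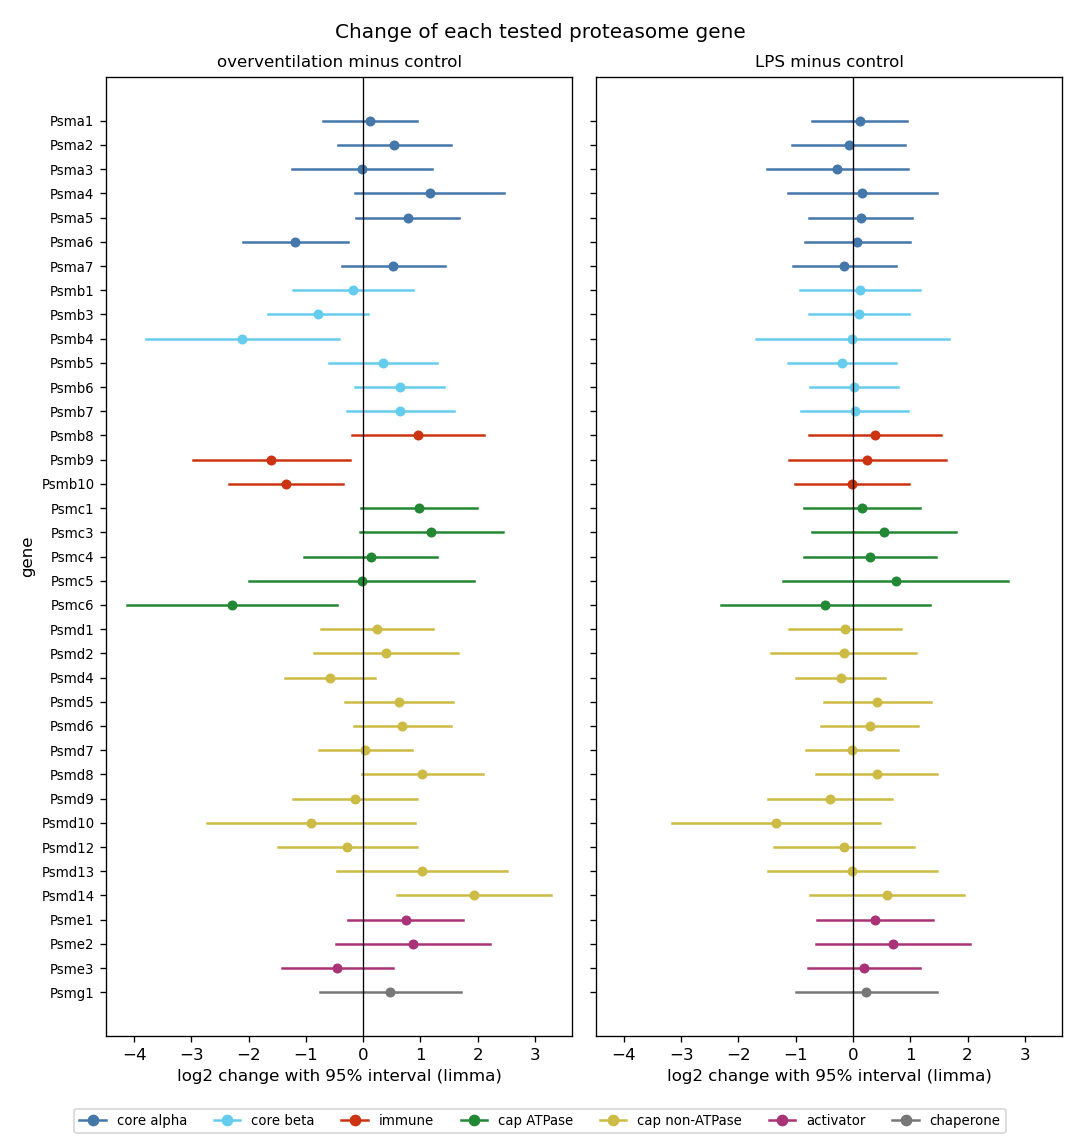
Log2 change of each tested proteasome gene (points) with its 95% interval from limma (lines) for overventilation minus control and for LPS minus control, coloured by role. The interval lies above 0 for Psmd14 and below 0 for Psma6, Psmb4, Psmb9, Psmb10 and Psmc6 after overventilation, and it holds 0 for every gene after LPS.

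The 3 immune subunit genes lay on both sides of control after overventilation, Psmb8 above and Psmb9 and Psmb10 below. Psmb8, the counterpart of Psmb5, had levels of 0.22, 0.64 and 2.02 on the overventilation arrays, of 0.12, 0.74 and 0.28 on the LPS arrays and of -0.50, 0.79 and -0.29 on the control arrays. The high value was that of overventilation array 3 and the groups overlapped (log2 change 0.96 ± 0.52 SE, limma adjusted p = 0.43). Psmb9, the counterpart of Psmb6, had -2.51, -0.35 and -1.95 after overventilation, 0.97, 0.45 and -0.67 after LPS and 0.21, 0.40 and -0.61 in controls. Arrays 1 and 3 lay below all other arrays while array 2 lay inside the range of the controls (log2 change -1.60 ± 0.61 SE, adjusted p = 0.266).

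Psmb10, the counterpart of Psmb7, had levels of -0.92, -0.75 and -2.38 on the overventilation arrays, of 0.38, -0.01 and -0.44 on the LPS arrays and of -0.03, -0.07 and 0.10 on the control arrays. Every overventilation value was lower than every LPS and every control value. At -1.35 ± 0.90 (SD, n = 3) against 0 ± 0.09 in controls its fold was 0.392, with a limma unadjusted p of 0.0133 and an adjusted p of 0.221. In these bulk samples fewer cells of a type and less RNA per cell cannot be told apart.

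A difference between 2 probes on the same array is free of a constant factor on that array, but not of a wider spread of its log2 ratios. Overventilation array 3 had the widest spread, with an SD of 1.64 over the 37 genes against 0.29 to 1.05 on the other arrays. The difference of Psmb8 minus Psmb5 averaged 0.61 ± 0.49 after overventilation, 0.57 ± 0.44 after LPS and 0 ± 0.53 in controls (SD, n = 3 each), and the groups overlapped. Psmb10 minus Psmb7 was -0.78, -1.54 and -3.67 on the overventilation arrays, 0.87, -0.23 and -0.80 on the LPS arrays and 0.20, -0.36 and 0.15 on the control arrays, so that overventilation lay below control on all arrays but overlapped with LPS. Psmb9 minus Psmb6 was -3.15, -0.44 and -3.12 after overventilation, 0.98, 0.16 and -0.43 after LPS and 0.11, 0.34 and -0.45 in controls. Array 2 of the overventilation group was again within the controls. Psmb9 minus its chromosomal neighbour Psmb8 was -2.73, -0.98 and -3.97 after overventilation, 0.85, -0.29 and -0.95 after LPS and 0.70, -0.39 and -0.32 in controls, the overventilated lungs lying below all others. These differences are given as descriptions, with no test.

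**Figure D3:**
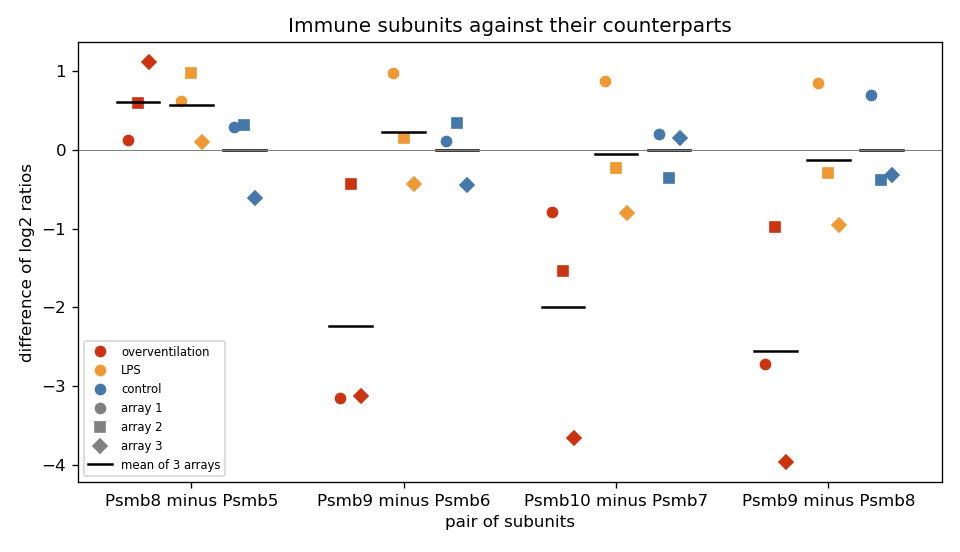
Difference of the log2 ratios of 2 subunits on the same array, for each immune subunit minus its constitutive counterpart and for Psmb9 minus Psmb8, by group (colour), array (marker shape) and mean of 3 arrays (line). The differences with Psmb9 or Psmb10 are lowest on overventilation arrays, down to -3.97, and those of Psmb8 minus Psmb5 lie between -0.61 and 1.11.

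The activator genes Psme1 and Psme2, whose products form 1 ring together, lay high on the same array as Psmb8. Psme1 had levels of 0.15, 0.47 and 1.60 on the overventilation arrays, of 0.12, 0.94 and 0.08 on the LPS arrays and of -0.22, 0.49 and -0.27 on the control arrays. Psme2 had -0.44, 1.09 and 1.94 after overventilation, -0.01, 1.34 and 0.76 after LPS and -0.10, 0.56 and -0.46 in controls. In both genes overventilation array 3 was the highest of the 9 and the groups overlapped (log2 changes 0.74 and 0.86, limma adjusted p = 0.485 and 0.554). That array was also the highest of the 9 for core and cap genes, among them Psma4, Psmb5, Psmb6, Psmb7, Psmc3, Psmd13 and Psmd14. Over the 9 arrays Psmb8 had a Pearson correlation of 0.97 with Psme1 and of 0.86 with Psme2, against -0.33 with Psmb9 and -0.77 with Psmb10. Cap genes were also close to Psmb8, with 0.93 for Psmd6, 0.92 for Psmc1 and 0.91 for Psmc3. After the group means were taken off, the correlation of Psmb8 was 0.96 with Psme1, 0.86 with Psme2, 0.08 with Psmb9 and -0.72 with Psmb10. These are descriptions of 9 points that share their arrays and the control mean. Psme3, whose product forms a nuclear activator ring of its own, had 0.12, -0.27 and -1.20 after overventilation, 0.21, 0.61 and -0.25 after LPS and 0.58, -0.17 and -0.40 in controls (log2 change -0.45, adjusted p = 0.694). Psmg1, an assembly chaperone of the alpha ring, had a change of 0.47.

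The low values gathered on overventilation arrays 1 and 3. On both of these arrays 8 of the 37 genes, Psma6, Psmb1, Psmb3, Psmb4, Psmb9, Psmb10, Psmc6 and Psmd4, lay below all 7 other arrays, against 11.6% of all tested probes. By more than 1.5 on the log2 scale this held for 2, Psmb4 and Psmc6 (5.41%, against 2.43%). Among genes that act with the proteasome, the deubiquitinase gene Uchl5 lay at -3.64, -0.39 and -3.79 on the overventilation arrays, at -0.61, -0.18 and -0.49 on the LPS arrays and at -0.13, -0.09 and 0.22 on the control arrays. It showed the same arrays low. Without overventilation replicate 2, limma called 5.08% of the tested probes, 271 of 290 lower, and among them Psma6, Psmb4 and Psmc6 (log2 changes -1.62, -3.17 and -3.35, adjusted p = 0.0308, 0.0027 and 0.00883). In that fit the overventilation group holds 2 arrays. The array left out is the one on which these 3 genes lay nearest the controls, so the adjusted p-values are no separate support for the low values. The part of the arrays themselves in these low values was not tested.

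**Figure D4:**
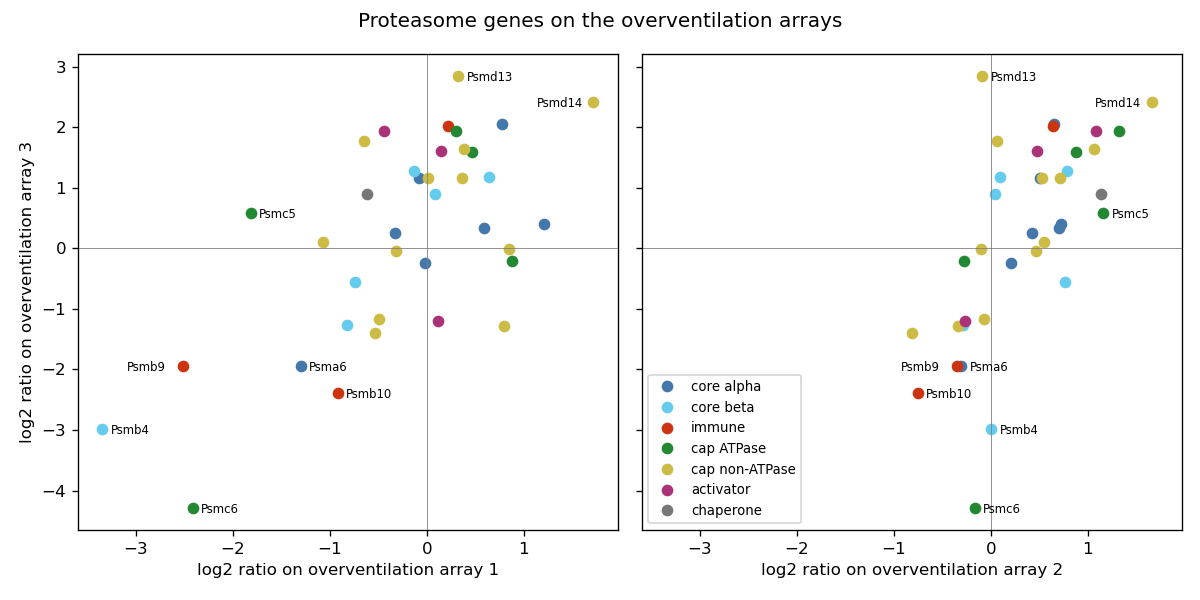
Log2 ratios of the 37 tested proteasome genes on overventilation array 3 (vertical axes) against array 1 (left) and array 2 (right), coloured by role. Psmb4 and Psmc6 are at -2.41 or lower on arrays 1 and 3 and at 0.01 and -0.16 on array 2, while Psmd14 is above 1.6 on all 3.

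Array 3 of the overventilation group stood apart in its spread and in its floor, the ratio it shows at probes that are at the limit of the measurement on every array. Over all tested probes the SD of the log2 ratios was 1.25 there, against 0.37 to 1.19 on the other 8 arrays, and its floor was a ratio of 2.22, against 0.709 to 1.32. The 37 genes had an SD of 1.64 on that array, against 0.29 to 1.05 on the others. Without overventilation replicate 3 their median change was 0.21, and Psmb10 (log2 change -0.83) and Psmd14 (1.69) were the 2 genes left at an unadjusted p under 0.05, against 8.46% of all tested probes. Of 8 alveolar type II markers, 6 were tested and none was at the floor on all arrays, with summed ratios of 4.84 to 23.3 after overventilation, 4.39 to 8.48 after LPS and 5.97 to 7.14 in controls. The surfactant gene Sftpd, at a log2 ratio of 4.12 on overventilation array 3, makes most of the highest sum. The list's median log2 change after overventilation was -0.20. It counts the protease gene Napsa by a probe at -2.13 (limma adjusted p = 0.193), while another probe of Napsa lay at 0.48. With that other probe counted the median would be positive. Sftpd at 1.87 and Sftpc at 0.74 lay higher, and Abca3 at -0.03, Sftpa1 at -0.37 and Slc34a2 at -0.44 lower. Markers of adipose tissue had summed ratios over 3 of 6 genes of 0.579 to 1.85 after overventilation, 0.256 to 0.974 after LPS and 0.893 to 6.19 in controls, and their part in the values of the 37 genes was not tested.

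Markers of leukocytes, which express immune subunits, were few on this table. Summed ratios of the 4 tested of 10 T and NK cell markers ranged from 3.09 to 4.21 after overventilation, from 4.06 to 7.52 after LPS and from 3.55 to 5.47 in controls, with Cd3e, Cd8a and Nkg7, defining markers of these cells, at the floor on all arrays. Those of 3 of 6 B cell markers ranged from 2.40 to 3.86 after overventilation, from 3.58 to 4.48 after LPS and from 2.34 to 6.62 in controls. Summed ratios of 3 of 10 macrophage and monocyte markers ranged from 4.16 to 29.7 after overventilation, from 1.60 to 18.3 after LPS and from 1.73 to 6.07 in controls, with Adgre1 at the floor on all arrays and the lysozyme gene Lyz2 at a log2 ratio of 4.77 on overventilation array 3. Those of 4 of 10 neutrophil markers ranged from 2.39 to 4.65 after overventilation, from 2.75 to 3.95 after LPS and from 3.44 to 5.04 in controls. At an unadjusted p under 0.05 in limma's test against control, Lyz2 was higher (log2 change 2.56) and Csf3r lower (-0.92) after overventilation. After LPS Cd3d was higher (0.72). The shares of all tested probes were 14.9% after overventilation and 2.07% after LPS. The part of these cells in the values of the immune subunits was not tested.

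Array 2 was the highest of its group for 15 of the 37 genes after overventilation (31.1% of all tested probes), for 24 after LPS (39.2% of all) and for 24 in controls (42% of all). It was the highest in all 3 groups for 9 of the 37 genes, Psma1, Psma2, Psma3, Psma6, Psmb1, Psmc5, Psmd4, Psmd9 and Psmg1 (24.3%), against 9.05% of all tested probes. The medians of the 37 genes on array 2 were 0.47 after overventilation, 0.45 after LPS and 0.29 in controls, while those of all tested probes were 0.01 after overventilation, 0.03 after LPS and 0.09 in controls.

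The second question was how these transcripts stand after endotoxin, set against the same 3 control arrays. None of the 37 genes passed limma's test (0% of all tested probes), none had an unadjusted p under 0.05 (2.07% of all tested probes, 0.998% higher and 1.07% lower), and in none were the groups without overlap (2.24% of all tested probes on the higher and 4.08% on the lower side). The median log2 change was 0.10, with 22 genes above 0 (44.7% of all tested probes), and that of all tested probes was -0.05. The fit takes 1 spread per probe from all 3 groups, so the p-values for LPS also carry the spread of the overventilation arrays. Without LPS replicate 2 the median of the 37 genes was -0.08. All 3 tested adipose markers were lower after LPS at an unadjusted p under 0.05, Adipoq by a log2 change of -3.32, Fabp4 by -2.98 and Retn by -2.09 (limma adjusted p = 1 for each), and Retn also after overventilation, at -2.21 (adjusted p = 0.213), where it was at the floor on all 3 arrays as set for the fit. With the replicate number as a block, the share of all tested probes at an unadjusted p under 0.05 was 5.5%, and again none of the 37 was among them.

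The highest changes after LPS were those of Psmc5, Psme2 and Psmd14. Psmc5, a cap ATPase gene, had levels of -1.81, 1.16 and 0.59 on the overventilation arrays, of -0.02, 1.40 and 0.85 on the LPS arrays and of -1.67, 1.14 and 0.53 on the control arrays. Array 1 was the lowest of its group in all 3 groups, and the log2 change after LPS was 0.75 ± 0.88 SE. Leaving out control replicate 1 turned it to -0.09 and leaving out control replicate 2 gave 1.32, and that of Psmd14 was 0.59 with all arrays and 1.04 without control replicate 1. Psme2 had a change of 0.70 ± 0.60 SE, and the 3 activators lay at 0.19 to 0.70. The immune subunits Psmb8, Psmb9 and Psmb10 had log2 changes of 0.38, 0.25 and -0.02, with 95% intervals of -0.77 to 1.54, -1.12 to 1.62 and -1.02 to 0.98. These intervals include the overventilation spread, the largest of the 3 groups in each gene. For Psmb10 the SD was 0.90 after overventilation, 0.41 after LPS and 0.09 in controls. The direction of Psmb9 and Psmb10 turned with 1 array left out, to -0.06 for Psmb9 and to 0.03 for Psmb10 without control replicate 3.

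Psmd10, Psmc6 and Psmd9 were the lowest after LPS. Psmd10 had levels of -0.54, -0.81 and -1.40 on the overventilation arrays, of 0.45, -3.50 and -0.98 on the LPS arrays and of 0.49, -0.22 and -0.27 on the control arrays. LPS array 2 alone was far below the rest, and the log2 change was -1.34 ± 0.81 SE. Psmd9, like Psmd10 an assembly chaperone, had -1.07, 0.55 and 0.10 after overventilation, -0.65, 0.06 and -0.62 after LPS and -0.26, 0.71 and -0.45 in controls, with a change after LPS of -0.40. For the core as a whole, without the immune subunits, the median change after LPS was 0.03 over 13 genes, and for the cap it was -0.01 over 17.

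**Figure D5:**
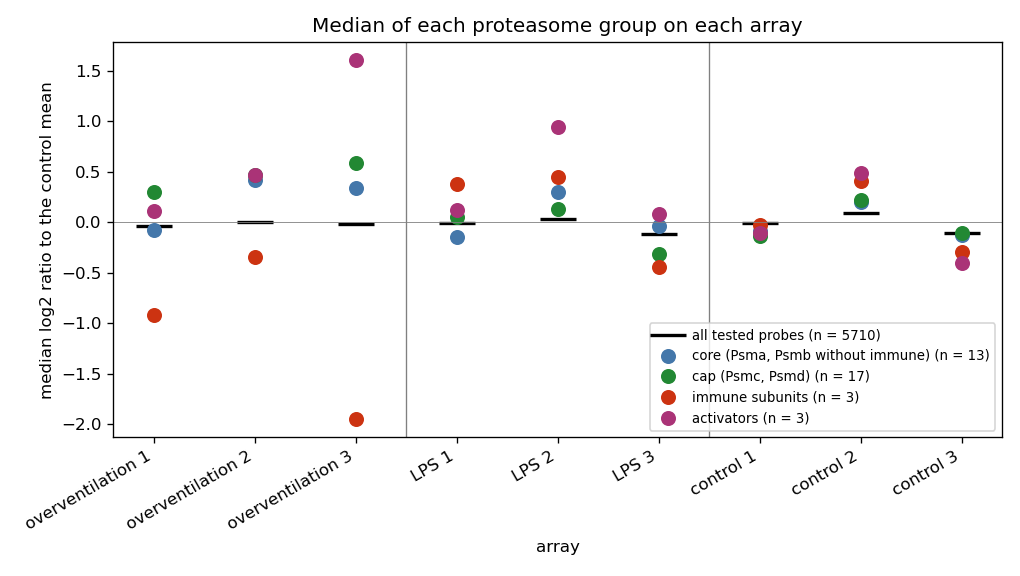
Median log2 ratio to the control mean of the core, cap, immune and activator genes (points) and of all 5710 tested probes (short lines) on each array. On overventilation array 3 the median of the 3 immune subunits is -1.95, with Psmb9 and Psmb10 low and Psmb8 at 2.02, and that of the activators is 1.60, while all 4 medians lie between -0.44 and 0.94 on the LPS arrays.

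The comparison of overventilation with LPS asks how the injuries differ, and it uses the same arrays as the comparisons with control. No gene of the 37 passed limma's test (0% of all tested probes). At an unadjusted p under 0.05 there were 5 lower genes, Psma6, Psmb3, Psmb4, Psmb9 and Psmb10, against 5.94% of all tested probes, and no higher one, against 3.57% (9.51% in both directions). Psmb10 had a log2 change of -1.33 ± 0.45 SE and Psmb9 one of -1.85 ± 0.61 SE (adjusted p = 0.494 for both). Psmb4 and Psmc6, which carried their low values on overventilation arrays 1 and 3, had changes of -2.09 and -1.81. Psmd14 (log2 change 1.34, adjusted p = 0.528) was the highest, ahead of Psmd13 (1.04) and Psma4 (1.00), and the groups did not overlap for Psmd14 on the higher side (5.71% of all tested probes) and for Psma6 and Psmb10 on the lower (5.46%). The median over the 37 genes was 0.26, with 25 above 0 (55% of all tested probes), and over all tested probes 0.07.

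Genes that work with the proteasome were counted from lists, with 1 probe a gene, and none of them passed limma's test in any comparison. Of 10 tested shuttle, deubiquitinase and partner genes, 1 was higher and 1 lower after overventilation at an unadjusted p under 0.05. These were Zfand2a, a stress-induced proteasome partner, with a log2 change of 1.80 (adjusted p = 0.243), and Uchl5 with -2.61 (adjusted p = 0.209). Of 13 tested ubiquitin-activating and ubiquitin-conjugating genes 1 was higher, Ube2d3 with 1.05, and the list's median was 0.19. The 5 tested regulators of proteasome genes had a median log2 change of -0.14 after overventilation. Keap1 lay at -0.14, Bach1 at -0.37, Ngly1 at -0.45 and Mafg at 0.16, and Nfe2l1 was not tested. Nfe2l2, which encodes the transcription factor NRF2, was the highest of the 5. It had levels of 1.42, 1.04 and 1.48 on the overventilation arrays, of 0.06, 1.29 and 0.46 on the LPS arrays and of 0.12, 0.58 and -0.70 on the control arrays. All 3 overventilation values lay above the controls (log2 change 1.31 ± 0.43 SE, adjusted p = 0.218).

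The other genes of class I antigen processing, which makes and presents the peptides, had a median log2 change of 0.05 after overventilation and of 0.12 after LPS over 7 tested genes. The chaperone gene Canx was the 1 of them at an unadjusted p under 0.05 after overventilation, with a change of -1.49 at 1 of its probes and of 0.22 at another. B2m, the light chain of class I molecules, had levels of 0.33, 0.68 and 1.53 on the overventilation arrays, of 0.11, 0.97 and 0.20 on the LPS arrays and of -0.21, 0.48 and -0.27 on the control arrays. Like Psmb8, Psme1 and Psme2, and like core and cap genes such as Psma4 and Psmb7, it was highest on overventilation array 3. Tap2, which lies beside Psmb8, had log2 changes of 0.19 after overventilation and 0.59 after LPS, and Tap1 was at the floor on 8 arrays. The interferon gamma gene Ifng itself never left the floor, and 5 tested genes of its pathway had medians of 0.80 after overventilation and 0.77 after LPS. Of these, Socs1, a feedback inhibitor of the pathway, had an unadjusted p of 0.0419 after LPS (log2 change 1.26, adjusted p = 1).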

How the data were processed

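The table holds 9 arrays of mouse lung RNA, 3 each after overventilation, after LPS and as control, grouped by the submitters' labels. The deposited values are linear ratios, and the values themselves were checked for this. The sources used here do not say how the authors made them. On the log2 scale every probe's 3 control ratios averaged 0 (largest deviation 2.49e-09). At 4690 probes 2 or more arrays held 1 fixed pattern of lowest values (tolerance 1e-06), each array's floor; such values were raised to the highest floor (a ratio of 2.22, log2 1.15) and each probe was centred once more on its control mean. Tests covered the 5710 probes that were above that floor on 3 or more arrays or had no 2 arrays at a floor, which was so for all 37 tested genes. A lone array at the floor cannot be recognised, and the number of arrays limits the precision. All 40 gene IDs matched the reference gene table; of all probes 8983 had 1 symbol, 1 several and 1028 none.

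The test was limma's, version 3.58.1 under R 4.3.3 (3 groups in 1 fit, eBayes, two-sided), with Benjamini-Hochberg adjustment over all tested probes and a threshold of 0.05. Data were simulated for overventilation against control over 5710 probes, with independent normal noise and 1 SD per probe pooled over the 3 groups. There 0% of changes of 1, 52% of changes of 2 and 94% of changes of 4 on the log2 scale were recovered. The simulation leaves out unequal spread between groups, as for Psmb10 (SD 0.90 after overventilation, 0.09 in controls), and correlation between arrays. These rates are therefore a rough guide for the measured data. Deviations of same-numbered arrays from their group means correlated at 0.50, 0.25 and 0.20 between LPS and control. The labels state no pairing and arrays of different numbers were not compared, so whether the numbers pair the arrays is not known. The main fit is unpaired. Between overventilation and control the 3 values were 0.51, 0.13 and 0.03, and between overventilation and LPS they were 0.50, 0.21 and 0.04. Alternatives were other floors, filters, scalings and weights, the replicate block and leaving out each array. Genes given on all arrays are the immune subunits, their counterparts and the activators, the 3 highest and 3 lowest changes of a comparison and those with an unadjusted p under 0.01; Psma6, B2m, Uchl5 and Nfe2l2 were added after their values were seen. A listed gene with several probes is counted by the probe above its floor on most arrays, or by the first of its probes where these are equal. The genes and lists were chosen with earlier results of these data known.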

Additional observations from a re-analysis of the deposited data

How the results depend on the processing

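Under 17 alternatives no proteasome gene passed limma's test at an adjusted p under 0.05, except without overventilation replicate 2. There 3 genes passed for overventilation against control (5.08% of all tested probes) and 4 for overventilation against LPS (3.96%). The 4 were Psma6, Psmb4, Psmb9 and Psmc6, and the array left out is the overventilation array on which they lay nearest the controls. Counts of genes at an unadjusted p under 0.05 are given here with the share of all tested probes. For overventilation against control the count was 6 (14.9%) with all arrays and ranged from 2 to 10 with 1 array left out. It was 10 without overventilation replicate 1 (14.7%), overventilation replicate 2 (17.3%) or control replicate 2 (13.0%), 9 without LPS replicate 2 (16.2%), 4 without control replicate 1 (11.4%) and 2 without overventilation replicate 3 (8.46%). For overventilation against LPS it was 5 (9.51%) and ranged from 3 to 9, with 9 without LPS replicate 2 (9.44%), 8 without overventilation replicate 2 (14.4%), and 3 without overventilation replicate 3 (3.17%) or LPS replicate 3 (6.94%). For LPS against control it was 0 (2.07%) and ranged from 0 to 1, with 1 without LPS replicate 1 (Psmd10, 8.0%) and without LPS replicate 3 (Psmd14, 2.1%). With no filter it was 3 for overventilation against control (7.79%) and 3 against LPS (4.73%). Without overventilation replicate 3 and with the highest floor of the other arrays it was 2 against control (8.29%) and 3 against LPS (3.31%). With the replicate block it was 10 against control (21.0%) and 8 against LPS (14.7%), so the shares over all probes were higher too, and the block added no call at an adjusted p under 0.05.

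With 1 array left out the median change of the genes ranged from 0.21 to 0.55 for overventilation against control, from -0.08 to 0.20 for LPS against control and from 0.10 to 0.51 for overventilation against LPS. Psmb10 and Psmd14 kept an unadjusted p under 0.05 for overventilation against control in 17 of 17 alternatives, with log2 changes of -1.65 to -0.83 for Psmb10 and of 1.57 to 2.37 for Psmd14 and adjusted p of 0.0977 to 0.675 and of 0.138 to 0.675. Psma6 kept it in 15, Psmc6 in 13, Psmb4 in 12 and Psmb9 in 9. These counts are not independent checks, since the genes were picked by their p-values in these same data. Other treatments of the floor, no filter, or an LPS array left out cannot alter their log2 changes against control. There only the spread used in the test can differ. These 6 kept their direction, but other genes given on all arrays did not under every alternative. The direction turned for 1 of 15 for overventilation against control (Psmb5), for 7 of 14 for LPS against control (Psmb5, Psmb6, Psmb7, Psmb9, Psmb10, Psmc5 and Psme3) and for 2 of 16 for overventilation against LPS (Psme1 and Psme2). No value of the 37 tested genes was raised to the floor, since the floor is not known at their probes, so a very low value on 1 array may itself be at a floor. Each gene rests on 1 probe.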

Other observations

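Over 666 pairs of the 37 tested genes the median Pearson correlation over the 9 arrays was 0.16, and 0.24 after the group means were taken off, against 0.01 and 0.02 over all pairs of tested probes. The closest pairs were Psmd8 and Psmc3 (0.97), Psme1 and Psmb8 (0.97) and Psmc6 and Psma6 (0.96), and the most opposed was Psmd1 and Psmc5 (-0.92), all named after their values were seen. These values describe 9 points that share array scaling and the control mean.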
